A study of Mus musculus with 2 samples.

Results

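The DNA methyltransferase genes Dnmt1, Dnmt3a, Dnmt3b and Dnmt3l and the TET dioxygenase genes Tet1, Tet2 and Tet3 were followed through mouse eye organoids, as 7 of the 27998 genes counted. They were found by their symbols in the gene list of both libraries. The organoids were grown from Rax-GFP embryonic stem cells, which carry a GFP knock-in at 1 allele of Rax (labelled Rax-GFP knockin Het), and were taken at day 4 and day 6 of culture. GFP marks cells that use Rax, a transcription factor of the early eye. Both days share the line and genotype, no other agent is named in the labels, and each day is 1 droplet library (3′ v2 chemistry) made from a pool of 3 biological experiments whose cells cannot be told apart. There was therefore no replicate of either day, no test was possible, and culture day and library cannot be told apart.

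After the cell filter, 8147 of 9114 barcodes remained at day 4, with a median of 11216 transcript molecules counted by their unique molecular identifiers (UMIs), and 6641 of 7446 at day 6, with a median of 12514. The filtered libraries held 98643495 and 87800738 UMIs. Barcodes present in both libraries numbered 91. Levels are given as CPM, the UMIs of a gene summed over a set of cells and scaled to 1000000 UMIs of those cells. Each has a 95% exact Poisson interval, each ratio of levels an exact conditional binomial interval, and each share an exact Clopper-Pearson interval. All of these cover counting error only and leave out the spread between organoids. A gene was counted as higher or lower where the ratio was at least 1.5-fold and its interval left out 1, among genes with a mean of at least 5 CPM over the 2 groups compared.

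DNMT1 is the maintenance methyltransferase, which copies methyl groups onto the new strand after replication at CpG sites, a cytosine followed by a guanine. DNMT3A and DNMT3B set methylation at new sites, and DNMT3L is a partner without catalytic activity that binds and stimulates them. TET1, TET2 and TET3 oxidise methylated cytosine, which opens the way to its loss. In the mouse embryo, methylation is low in the naive pluripotent cells of the blastocyst and is laid down as the epiblast forms after implantation, the step at which Dnmt3b is best known. Short reads from the 3′ end of transcripts do not separate isoforms of Dnmt3a, Dnmt3b or Tet1, and levels of different genes are not compared with each other here, since capture differs by gene.

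Sequence just upstream of the start is shown for Dnmt3b and Dnmt3l, which took different courses between cell groups, and for Tet1 and Tet3, which ran in opposite directions. For each, the 250 bases before the RefSeq start with the most annotated transcript starts within 100 bases are shown 5′ to 3′ (RefSeq, GRCm38.p6), with each CpG in capitals, because CpG is the site on which these enzymes act.
Dnmt3b (chr2:153649199-153649448, plus strand): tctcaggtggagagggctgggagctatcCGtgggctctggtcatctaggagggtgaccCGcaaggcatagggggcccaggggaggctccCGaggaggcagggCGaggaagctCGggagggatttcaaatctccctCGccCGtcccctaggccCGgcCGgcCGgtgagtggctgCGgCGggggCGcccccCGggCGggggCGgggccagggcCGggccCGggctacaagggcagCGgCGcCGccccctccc
Dnmt3l (chr10:78055085-78055334, plus strand): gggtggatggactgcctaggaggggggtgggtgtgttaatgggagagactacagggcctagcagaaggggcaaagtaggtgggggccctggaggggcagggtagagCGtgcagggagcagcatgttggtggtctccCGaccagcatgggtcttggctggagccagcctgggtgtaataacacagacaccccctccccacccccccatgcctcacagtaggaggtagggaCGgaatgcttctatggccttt
Tet1 (chr10:62887325-62887574, minus strand): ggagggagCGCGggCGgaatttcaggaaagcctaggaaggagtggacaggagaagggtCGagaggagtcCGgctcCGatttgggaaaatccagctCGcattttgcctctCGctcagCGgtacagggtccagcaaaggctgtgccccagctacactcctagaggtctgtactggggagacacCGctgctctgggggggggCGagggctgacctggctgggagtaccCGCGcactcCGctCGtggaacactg
Tet3 (chr6:83441679-83441928, minus strand): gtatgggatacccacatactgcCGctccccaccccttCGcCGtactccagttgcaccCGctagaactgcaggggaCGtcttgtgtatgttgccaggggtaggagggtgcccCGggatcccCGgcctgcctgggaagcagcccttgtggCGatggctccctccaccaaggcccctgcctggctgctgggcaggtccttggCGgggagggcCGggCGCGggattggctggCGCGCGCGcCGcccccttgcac
The Dnmt3b window held 21 CpG, and the start shown lies within 100 bases of 9 of the 12 annotated transcript starts. For Dnmt3l this was 3 of 8, for Tet3 3 of 5 and for Tet1 1 of 10, so that most annotated starts of Dnmt3l and Tet1 lie elsewhere. The Dnmt3l window held 3 CpG, and the windows of the other RefSeq starts of Dnmt3l held 4 and 5. Tet1 held 15 and Tet3 held 17. Over all 32851 RefSeq windows of this length the median was 6 CpG, with quartiles of 2 and 16. Of the members not shown, the main Dnmt1 window held 26 CpG, the windows of Dnmt3a held 38, 40 and 15, and that of Tet2 held 51. The letters GGGCGG or their reverse complement, a GC box, occurred in the windows shown of Dnmt3b (3 matches), Tet1 and Tet3 (1 match each) and in 32.7% of all windows, and did not occur in the Dnmt3l window shown. Of the other Dnmt3l windows, that with 4 CpG held 2 matches and that with 5 CpG held 0. The octamer ATGCAAAT, searched on both strands, was in no member's window and in 1.60% of all windows. These are descriptions of letters in a window, and the files hold no methylation or binding data.

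On the GRCm38 annotation (GENCODE vM21), Dnmt3b spans chr2:153649450-153687730 on the plus strand, Dnmt3a chr12:3806007-3914443 plus, Dnmt3l chr10:78041947-78063622 plus and Dnmt1 chr9:20907209-20959888 minus. Tet1 spans chr10:62804570-62908996, Tet2 chr3:133463679-133545139 and Tet3 chr6:83362373-83459084, all on the minus strand. Dnmt3a, Dnmt3b, Dnmt3l, Tet2 and Tet3 each overlap 1 gene annotated on the opposite strand, and Dnmt1, Tet1 and Tet3 overlap 1, 2 and 2 small or provisional genes on their own strand. Whether counting used the strand is not given in the sources used here.

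Between the 2 libraries, the de novo methyltransferases and Tet1 were lower at day 6 and Tet3 was higher. Dnmt3b stood at 520.2 CPM (interval 515.7 to 524.7) at day 4 and 49.04 (47.6 to 50.5) at day 6, a ratio of 0.0943 (0.0914 to 0.0973). Dnmt3a stood at 69.3 and 25.4 CPM, a ratio of 0.367 (0.349 to 0.385). Tet1 stood at 48.8 and 23.8 CPM, a ratio of 0.488 (0.463 to 0.514). Tet3 stood at 11.4 and 21.8 CPM, a ratio of 1.92 (1.78 to 2.06). Thus 3 members were lower, where 7.54% of the 8666 genes at the CPM floor were, and 1 was higher, where 15.2% were. Dnmt1, at 49.96 and 60.5 CPM, and Dnmt3l, at 15.2 and 12.7 CPM, differed by less than 1.5-fold. Tet2 was below the floor, at 1.26 and 2.28 CPM with 124 and 200 UMIs. The median log2 ratio of the 6 members at the floor was -0.65, beside 0.14 for all genes. In bulk sums of this kind, fewer cells of a type and less RNA per cell cannot be told apart, so the same levels were read within groups of cells.

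**Figure D1:**
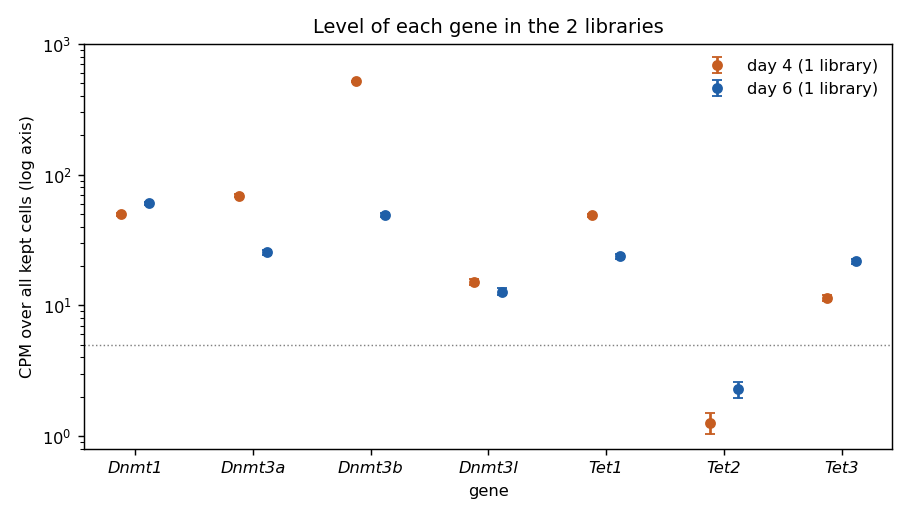
CPM of the 7 genes over all kept cells of the day 4 and day 6 libraries, on a log axis, with 95% counting intervals as bars, most of them smaller than the points. The dotted line is the floor of 5 CPM, which Tet2 does not reach. Dnmt3b falls from 520.2 to 49.04 CPM, Dnmt3a and Tet1 also sit lower at day 6, and Tet3 sits higher.

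Cells were grouped by raw UMIs of 5 genes that were not among the members. Dppa5a, a gene of naive pluripotent cells, marked the Dppa5a-high group at 10 or more UMIs. Among the remaining cells, those with at least 2 UMIs of Sox10, a neural crest factor, were set aside, then those with Six6, a factor of the optic vesicle. The rest were divided by Fgf5, a gene of the post-implantation epiblast, and Six3, an anterior neural and eye factor, into Fgf5-only, Fgf5 with Six3, Six3-only and no marker. Day 4 held 1604 Dppa5a-high, 3763 Fgf5-only, 856 Fgf5 with Six3, 324 Six3-only, 67 Six6 and 1533 no marker cells, and no cell with 2 Sox10 UMIs. Day 6 held 575 Dppa5a-high, 69 Fgf5-only, 27 Fgf5 with Six3, 1231 Six3-only, 2769 Six6, 25 Sox10 and 1945 no marker cells. The labels call the cells of both days retina progenitors. The eye genes Rax, Pax6, Lhx2, Vax2 and Hmx1 together reached 702 CPM in day 6 Six6 cells, 365 of it from Pax6, and between 4.84 and 165 CPM in the day 4 groups. In the other day 6 groups they reached 447 CPM in Six3-only, 423 in Fgf5 with Six3 and 244 in no marker cells. They reached between 13.7 and 70.3 CPM in the rest of day 6. The 9 naive markers together reached 761 and 809 CPM in Dppa5a-high cells at day 4 and day 6, with all 9 at 5 CPM or more, and 7.41 CPM in day 6 Six6 cells. Tdgf1 alone gave 385 and 280.1 CPM of the first 2 sums. The 6 markers of the post-implantation epiblast, led there by Utf1, were also high in Dppa5a-high cells, at 1199 CPM at day 4 and 737 CPM at day 6. Day 4 Fgf5-only cells had 1190 CPM. Utf1 alone gave 546 and 398 CPM of the Dppa5a-high sums, and 5 of the 6 markers were at 5 CPM or more on each day. The group thus carried genes of both sets and is called by its grouping gene. The 6 neural crest markers reached 510.5 CPM in the 25 Sox10 cells, with 1 of 6 at 0.

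Markers of primitive or visceral endoderm (7 genes, led by Dab2) moved with the Dppa5a-high group. They summed to 64.7 CPM there at day 4 and 246 CPM at day 6, with all 7 at 5 CPM or more at day 6, against 9.86 CPM in day 4 Fgf5-only and 6.96 CPM in day 6 Six6 cells. They also summed to 131 CPM in the 69 day 6 Fgf5-only cells and to between 7.90 and 73.6 CPM in the other groups. Leaving out cells with 5 or more UMIs of these genes changed no count of members in the comparisons below except that of day 6 against day 4 Fgf5-only cells, where the count was 4 in place of 3. Markers of neurons summed to between 179 and 306 CPM in the day 4 groups and between 38.7 and 125 CPM in the day 6 groups. Stmn2 alone gave between 128 and 253 CPM of the day 4 sums, so these sums rest mostly on 1 gene. The part of the neuron markers in the results was not tested.

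**Figure D2:**
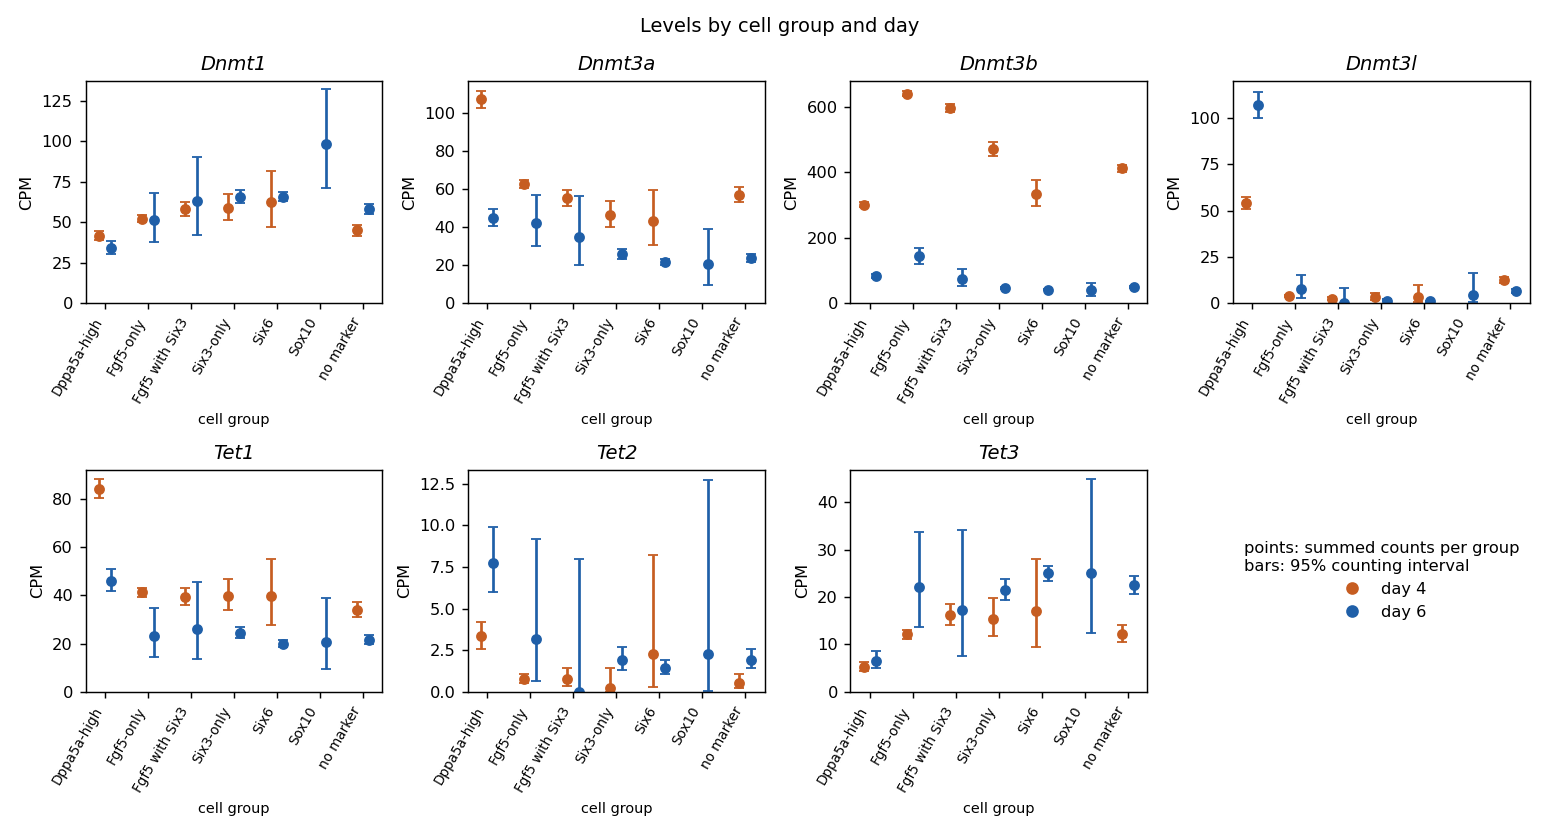
CPM of each gene in the 7 cell groups at day 4 and day 6, with 95% counting intervals as bars and each vertical axis starting at 0. Dnmt3b is highest in day 4 Fgf5-only cells (639 CPM) and low in every day 6 group, Dnmt3l is high in Dppa5a-high cells of both days, and Tet3 is lowest where Tet1 is highest, in Dppa5a-high cells of each day. The day 6 Sox10 and Fgf5 with Six3 groups hold 25 and 27 cells, and their bars are correspondingly wide.

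Within day 4, Dppa5a-high cells had more Dnmt3l, Dnmt3a and Tet1 and less Dnmt3b and Tet3 than Fgf5-only cells. That is 3 of 6 members at the floor higher, where 9.54% of genes were, and 2 lower, where 13.6% were. Between Six3-only and Fgf5-only cells of day 4, 0 of 5 members at the floor were counted, where 2.11% of genes were higher and 3.61% lower. From day 4 Fgf5-only to day 6 Six6 cells, Dnmt3a, Dnmt3b and Tet1 were lower, where 9.59% of genes were, and Tet3 was higher, where 18.4% were. Within day 6, Dppa5a-high cells had more Dnmt3a, Dnmt3b, Dnmt3l and Tet1 than Six6 cells, where 17.2% of genes were higher, and less Dnmt1 and Tet3, where 28.2% were lower. Dnmt3l reached the floor in these comparisons only through the Dppa5a-high group, where it was high, so its place in the counts was fixed by the floor.

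Groups of the same name were also set against each other across days. In Dppa5a-high cells, Dnmt3l and Tet2 were higher at day 6, where 11% of genes were, and Dnmt3a, Dnmt3b and Tet1 were lower, where 3.8% were. Tet2 reached the floor only through day 6, and thinning every cell to 5000 UMIs took it under 1.5-fold. Leaving out cells of more than 1 kind by the grouping genes other than Six3 took the log2 ratio of Dnmt3l there from 0.99 to 0.56, also under 1.5-fold. In Fgf5-only cells, Tet3 was higher, where 9.8% of genes were, and Dnmt3b and Tet1 were lower, where 5.04% were, and with thinning Tet3 was no longer counted. In Six3-only cells, 0 members were higher, where 14.5% of genes were, and Dnmt3a, Dnmt3b and Tet1 were lower, where 6.93% were. Thinning took the log2 ratio of Tet1 there to -0.34, which was not counted, and that of Tet3 to 0.73, which was. The Fgf5-only and Six3-only comparisons across days were added after the data were seen, as was that of 68 day 6 cells with at least 1 Sox10 UMI against Six6 cells. In the last, 0 of 5 members were counted, where 6.53% of genes were higher and 8.53% lower. The comparisons share groups of cells and are not independent of each other.

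Dnmt3b, the de novo methyltransferase of the early epiblast, followed Fgf5 at day 4. It stood at 639 CPM (632 to 647) in Fgf5-only cells, 595.6 (582.4 to 609) in Fgf5 with Six3, 470.4 (449 to 492) in Six3-only, 411.8 (401 to 422) in no marker, 334 (297 to 374.5) in Six6 and 299.8 (292 to 307) in Dppa5a-high cells. The intervals of all neighbours in this order lay apart except those of Six6 and Dppa5a-high cells, which overlapped. At day 6 the order was 143 CPM (120 to 169) in Fgf5-only, 82.6 (76.6 to 89.0) in Dppa5a-high, 73.7 (51.0 to 103) in Fgf5 with Six3, 48.7 (46.0 to 51.7) in no marker, 45.8 (42.6 to 49.2) in Six3-only, 40.6 (38.6 to 42.7) in Six6 and 38.7 (22.6 to 62.0) in Sox10 cells. Of the neighbours in the day 6 order, only Fgf5-only and Dppa5a-high cells had intervals that lay apart.

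Each group of the same name had less Dnmt3b at day 6. The ratio of day 6 to day 4 was 0.276 (0.254 to 0.298) in Dppa5a-high, 0.223 (0.187 to 0.264) in Fgf5-only and 0.0974 (0.0894 to 0.106) in Six3-only cells. Against day 4 Fgf5-only cells, day 6 Six6 cells held 0.0635 (0.0603 to 0.0669) of the level. Per cell, the median count was 7 UMIs in day 4 Fgf5-only cells, with percentiles 10 and 90 at 2 and 16 UMIs, and 0 UMIs in day 6 Six6 cells, with percentile 90 at 2 UMIs. After thinning every cell to 5000 UMIs, 90.9% (89.9 to 91.8) of the former and 17.9% (16.5 to 19.4) of the latter had a Dnmt3b UMI. Without thinning the shares were 97.2% and 39.9%, at median depths of 11315 and 12633 UMIs.

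Six6 cells were few at day 4 and divided by Fgf5, a split added after the data were seen. The 32 Six6 cells that also held Fgf5 had Dnmt3b at 565 CPM (497 to 639.9), and the 35 without Fgf5 at 101 CPM (73.0 to 135), from 250 and 44 UMIs. The intervals did not overlap, and the second value lay between those of the other day 4 groups and day 6 Six6 cells. Dnmt3a stood at 61.1 CPM (40.2 to 88.8) in the former and 25.1 CPM (12.5 to 45.0) in the latter, from 27 and 11 UMIs, with intervals that overlapped.

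Dppa5a-high cells of day 4 were also mixed in this respect. The 814 with at least 1 Fgf5 UMI had Dnmt3b at 403.5 CPM (392 to 415) and the 790 without had 163 CPM (155 to 171.5), with Dppa5a itself at 2492 and 3988 CPM. Cells of more than 1 kind by the grouping genes other than Six3 made up 854 of the day 4 cells and 155 of the day 6 cells. Whether they were doublets was not tested. Leaving them out moved the log2 ratio of Dnmt3b between Dppa5a-high and Fgf5-only cells from -1.09 to -1.97, and that of Dppa5a-high cells across days from -1.86 to -1.04.

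Dnmt3a, the other de novo enzyme, was highest in Dppa5a-high cells of day 4, at 107 CPM (103 to 112), and lay at 62.7 (60.5 to 65.1) in Fgf5-only, 56.9 in no marker, 55.2 in Fgf5 with Six3, 46.6 in Six3-only and 43.2 in Six6 cells. The ratio of Dppa5a-high to Fgf5-only cells was 1.71 (1.62 to 1.81), the opposite direction to Dnmt3b. In the 814 Dppa5a-high cells with Fgf5 it stood at 127 CPM (121 to 134), above the 81.1 CPM (75.3 to 87.3) of those without. With cells of more than 1 kind left out, the log2 ratio of Dnmt3a between Dppa5a-high and Fgf5-only cells moved from 0.77 to 0.37, so that it was no longer counted and 4 members in place of 5 were. At day 6 Dnmt3a ran from 44.9 CPM (40.5 to 49.7) in Dppa5a-high to 21.5 CPM (20.1 to 23.1) in Six6 cells, a ratio of 2.08 (1.84 to 2.36). Within groups of the same name, the ratio of day 6 to day 4 was 0.419 (0.374 to 0.467) in Dppa5a-high and 0.554 (0.465 to 0.662) in Six3-only cells. In Fgf5-only cells it was 0.669 (0.477 to 0.913), which falls short of 1.5-fold.

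Dnmt3l, the partner without catalytic activity, was carried by Dppa5a-high cells on both days. It stood at 54.0 CPM (50.8 to 57.2) there at day 4, against 12.3 in no marker and between 2.40 and 3.68 CPM in Fgf5-only, Fgf5 with Six3, Six3-only and Six6 cells. The ratio to Fgf5-only cells was 14.7 (12.5 to 17.4). At day 6 it stood at 107 CPM (100.2 to 114), against 0.856 CPM (0.586 to 1.21) in Six6 cells, from 897 and 32 UMIs, a ratio of 125 (87.95 to 184). Thinning every cell to 5000 UMIs moved that log2 ratio from 6.97 to 7.64. Thinned, 31.8% (28.0 to 35.8) of day 6 Dppa5a-high cells had a Dnmt3l UMI and 0.253% (0.102 to 0.520) of Six6 cells did. Without thinning the shares were 57.2% and 0.975%, at median depths of 14310 and 12633 UMIs.

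Dnmt3l was the only methyltransferase gene with a higher level in Dppa5a-high cells of day 6 than in those of day 4, by 1.98-fold (1.81 to 2.17). With cells of more than 1 kind left out, that ratio fell under 1.5-fold. The 790 Dppa5a-high cells of day 4 without Fgf5 had Dnmt3l at 81.1 CPM (75.3 to 87.3). Tet2 was also higher at day 6, with 3.32 CPM at day 4 and 7.76 CPM at day 6 (2.34-fold, 1.64 to 3.33, not counted with thinning), while Dnmt3a, Dnmt3b and Tet1 were lower. Dnmt3l was also high in cells with endoderm markers. The 28 Dppa5a-high cells of day 4 with 5 or more endoderm marker UMIs had 183 CPM (143 to 230), and the 1576 others had 51.4 CPM (48.3 to 54.6). At day 6 the 75 such cells had 123 CPM (103 to 146) and the 500 others had 104.8 CPM (97.5 to 112), with overlapping intervals. The day 6 level in Dppa5a-high cells was thus about as large without the cells carrying endoderm markers. In the no marker group of day 6, 81 cells with endoderm markers had 42.6 CPM (30.1 to 58.4) and 1864 without had 5.20 CPM (4.30 to 6.23).

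RNA released into the droplets can place UMIs in cells that do not make a transcript, and its part in these levels was not tested. Dnmt3l UMIs per 1000 Dppa5a UMIs were 21.7 in day 6 Dppa5a-high cells and 56.5 in Six6 cells, whose Dppa5a is held under 10 UMIs a cell by the grouping. For Dnmt3b the same numbers were 16.8 and 2680. At day 4 Dnmt3l UMIs per 1000 Dppa5a UMIs were 17.2 in Dppa5a-high and 29.1 in Fgf5-only cells.

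Dnmt1, the maintenance enzyme, varied least. It ran from 41.7 CPM (38.9 to 44.6) in Dppa5a-high to 62.5 (47.1 to 81.4) in Six6 cells at day 4. At day 6 it ran from 34.0 CPM (30.2 to 38.2) in Dppa5a-high to 65.7 (63.1 to 68.4) in Six6 and 98.0 (70.9 to 132) in the 25 Sox10 cells. Dppa5a-high cells were lowest on both days. At day 4 their interval overlapped that of no marker cells, at 44.8 CPM (41.4 to 48.4). The ratio of Dppa5a-high to Six6 cells at day 6 was 0.518 (0.456 to 0.586), and the ratio to Fgf5-only cells at day 4 was 0.800 (0.739 to 0.866). In the day 4 Fgf5-only, Fgf5 with Six3, Six3-only and Six6 cells and the day 6 Fgf5-only, Fgf5 with Six3, Six3-only and Six6 cells, levels lay between 51.4 and 65.7 CPM. In the 68 cells with at least 1 Sox10 UMI, Dnmt1 stood at 82.0 CPM (65.9 to 101), 1.25-fold (0.999 to 1.54) the level of Six6 cells.

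Dnmt1 is known as a gene of replicating cells, so its level was read by cell cycle phase, called from lists of S and G2/M genes in thinned cells. Among day 4 Fgf5-only cells Dnmt1 stood at 32.1 CPM (24.7 to 41.1) in G1, 53.4 (50.1 to 56.9) in S and 52.6 (49.9 to 55.5) in G2/M. The ratio of S to G1 was 1.66 (1.29 to 2.18), and Dnmt3b gave 1.59 (1.48 to 1.71). Cells called G1 were only 5.38% of those called and differed in other ways, with a median of 8636 UMIs against 10852 in S, and 19.6% of them had under 0.5% mitochondrial counts against 0.724% in S. Among day 6 Six6 cells 41 were called G1, and the S to G1 ratio of Dnmt1 was 1.27 (0.850 to 1.998). Depth and mitochondrial share moved with the phase call, and their part in these ratios was not tested.

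Tet1, known as the TET gene of pluripotent cells, had its highest level in Dppa5a-high cells of day 4, at 84.2 CPM (80.3 to 88.3), and lay at 41.2 (39.4 to 43.1) in Fgf5-only, 39.97 in Six3-only, 39.8 in Six6, 39.6 in Fgf5 with Six3 and 34.0 in no marker cells. The 4 groups with a grouping gene other than Dppa5a did not differ beyond their intervals. The ratio of Dppa5a-high to Fgf5-only cells was 2.04 (1.91 to 2.18). At day 6 Tet1 stood at 46.2 CPM (41.7 to 51.0) in Dppa5a-high, 24.6 in Six3-only, 23.1 in Fgf5-only, 21.5 in no marker and 19.9 (18.5 to 21.4) in Six6 cells. It was lower at day 6 within each of the groups compared across days, with ratios of 0.549 (0.490 to 0.613) in Dppa5a-high, 0.560 (0.350 to 0.850) in Fgf5-only and 0.615 (0.510 to 0.744) in Six3-only cells. The Fgf5-only ratio rests on 22 UMIs at day 6, and with thinning the Six3-only ratio was no longer counted.

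Tet3, best known for acting on the paternal genome of the zygote and in neural cells, ran the other way. At day 4 it was lowest in Dppa5a-high cells, at 5.23 CPM (4.28 to 6.31), and stood at 12.1 (11.1 to 13.1) in Fgf5-only, 12.1 in no marker, 15.4 in Six3-only, 16.2 (14.1 to 18.5) in Fgf5 with Six3 and 17.05 (9.54 to 28.1) in Six6 cells. At day 6 it stood at 6.57 CPM (4.95 to 8.55) in Dppa5a-high, 21.5 (19.3 to 23.8) in Six3-only, 22.0 in Fgf5-only, 22.5 in no marker and 24.99 (23.4 to 26.6) in Six6 cells. The ratio of Dppa5a-high to other cells was 0.432 (0.348 to 0.532) against Fgf5-only cells at day 4 and 0.263 (0.196 to 0.345) against Six6 cells at day 6. Within Dppa5a-high cells the ratio across days was 1.26 (0.891 to 1.76). In Fgf5-only cells it was 1.82 (1.12 to 2.81), from 21 UMIs at day 6, and thinning moved its log2 value from 0.86 to 0.21, where it was no longer counted. With cells of more than 1 kind left out, the log2 ratio between Dppa5a-high and Fgf5-only cells moved from -1.21 to -1.97, and that of Dppa5a-high cells across days from 0.33 to 0.96.

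Tet2, the TET gene best known from blood cells, reached 5 CPM in 1 group alone, the day 6 Dppa5a-high cells, at 7.76 CPM (5.99 to 9.89) from 65 UMIs. It stood at 3.32 CPM (2.58 to 4.21) in Dppa5a-high cells of day 4 and between 0 and 3.15 CPM in all others. Thinning moved the log2 ratio across days in Dppa5a-high cells from 1.22 to 0.54, where it was no longer counted. In the day 6 cells with 50 or more Dppa5a UMIs it stood at 11.2 CPM, from 56 UMIs, against 2.48 CPM, from 5 UMIs, in those with 20 to 49.

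The split of UMIs among family members differed between groups. The share of Tet3 among Tet1 and Tet3 UMIs was 5.84% (4.81 to 7.02) in day 4 Dppa5a-high, 22.7% (21.04 to 24.4) in day 4 Fgf5-only, 29.0% (25.7 to 32.5) in Fgf5 with Six3 and 55.6% (53.2 to 58.0) in day 6 Six6 cells. In day 6 Dppa5a-high cells it was 12.4% (9.51 to 15.9). Dnmt1 made up 6.87% (6.60 to 7.14) of the UMIs of the 4 methyltransferase genes in day 4 Fgf5-only cells and 51.1% (49.6 to 52.5) in day 6 Six6 cells. Between these groups Dnmt1 itself stood at 52.04 and 65.7 CPM, and Dnmt3b, in the denominator of the share, at 639 and 40.6 CPM. Dnmt3l made up 39.9% (37.8 to 41.9) in day 6 Dppa5a-high cells, 10.7% (10.1 to 11.4) in day 4 Dppa5a-high cells and 0.665% (0.455 to 0.938) in day 6 Six6 cells. Capture differs by gene, so these shares can be set against each other between groups but are not shares of protein or of transcript number.

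**Figure D3:**
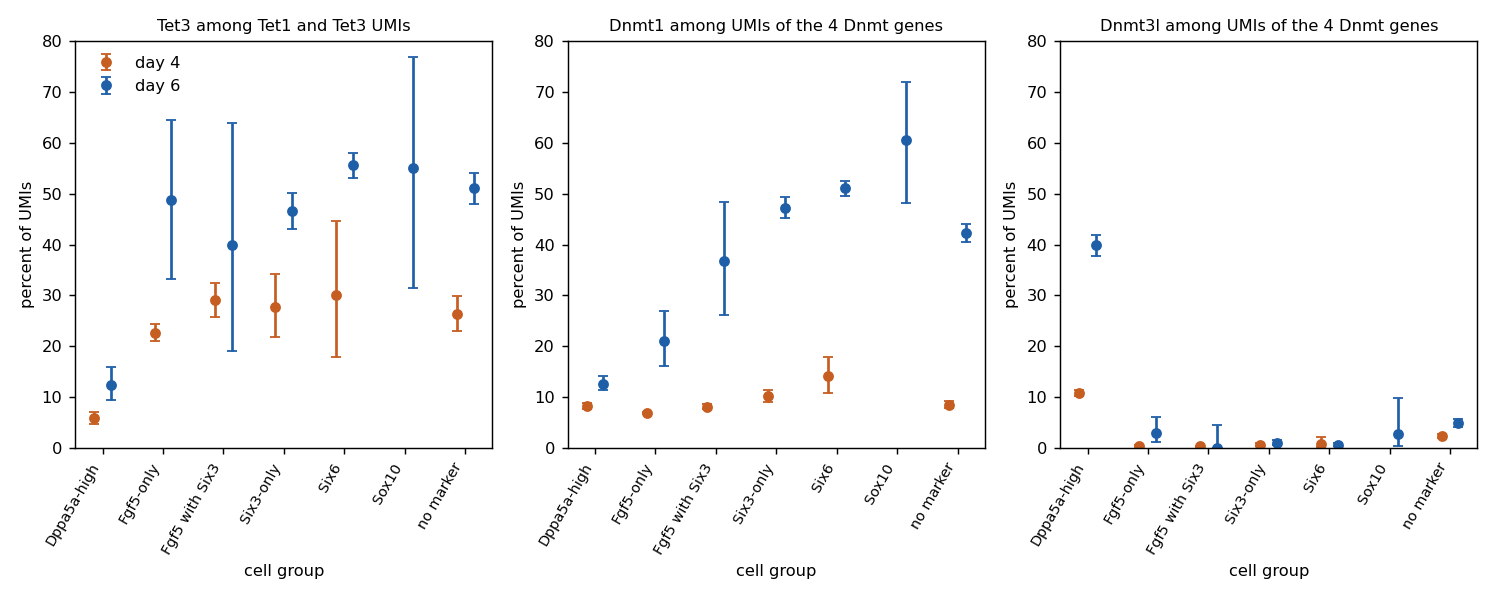
Percent of UMIs from Tet3 among Tet1 and Tet3, and from Dnmt1 and Dnmt3l among the 4 Dnmt genes, by cell group and day, with 95% exact binomial intervals as bars. Tet3 rises from 5.84% in day 4 Dppa5a-high to 55.6% in day 6 Six6 cells, Dnmt1 from 6.87% in day 4 Fgf5-only to 51.1% in day 6 Six6 cells, where Dnmt3b goes from 639 to 40.6 CPM, and Dnmt3l stands at 39.9% in day 6 Dppa5a-high cells.

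Along the number of Dppa5a UMIs in a cell, the members took different courses at day 4. Dnmt3b was at 540.3 CPM in cells with 0 Dppa5a UMIs, 602.8 with 1 to 2, 602.2 with 3 to 9, 458 with 10 to 19, 281 with 20 to 49 and 188 with 50 or more. Its highest level thus lay at 1 to 9 Dppa5a UMIs. Dnmt3l ran from 2.46 CPM at 0 through 12.4 at 3 to 9 and 50.6 at 20 to 49 to 76.4 CPM at 50 or more. Dnmt3a ran from 52.7 CPM at 0 to 117 at 20 to 49 and 107 at 50 or more, the last 2 with overlapping intervals. Tet1 stayed between 37.2 and 41.1 CPM up to 9 UMIs and reached 57.3, 80.1 and 112 CPM in the 3 bins above. Tet3 went from 12.3 CPM at 0 and 14.4 at 1 to 2 down to 1.96 CPM at 50 or more.

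At day 6 Dnmt3a, Dnmt3l and Tet3 kept these directions, Tet1 did so only from 20 Dppa5a UMIs up, and Dnmt3b did not. Dnmt3a ran from 22.9 CPM at 0 to 48.1 at 20 to 49 and 45.3 at 50 or more. Dnmt3l ran from 0.967 CPM at 0 to 50.04 at 3 to 9 and 115 at 20 to 49 Dppa5a UMIs, and Tet3 from 23.5 CPM at 0 to 4.39 at 50 or more. Tet1 was at 20.8 CPM at 0, 14.8 at 10 to 19, 36.2 at 20 to 49 and 58.6 at 50 or more. Dnmt3b was at 43.2 CPM at 0, 102 at 10 to 19 and 75.6 at 50 or more, so it was higher and not lower in cells with many Dppa5a UMIs. Tet1 was at 15.1 CPM (8.64 to 24.5) in the 75 Dppa5a-high cells of day 6 with endoderm markers against 50.7 CPM (45.7 to 56.1) in the 500 others, and the part of such cells in the bins was not tested. The bins rest on 103 to 4898 cells at day 6 and 439 to 2828 at day 4. Their medians were 10162 to 14503 UMIs at day 4 and 11074 to 16039 UMIs at day 6.

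**Figure D4:**
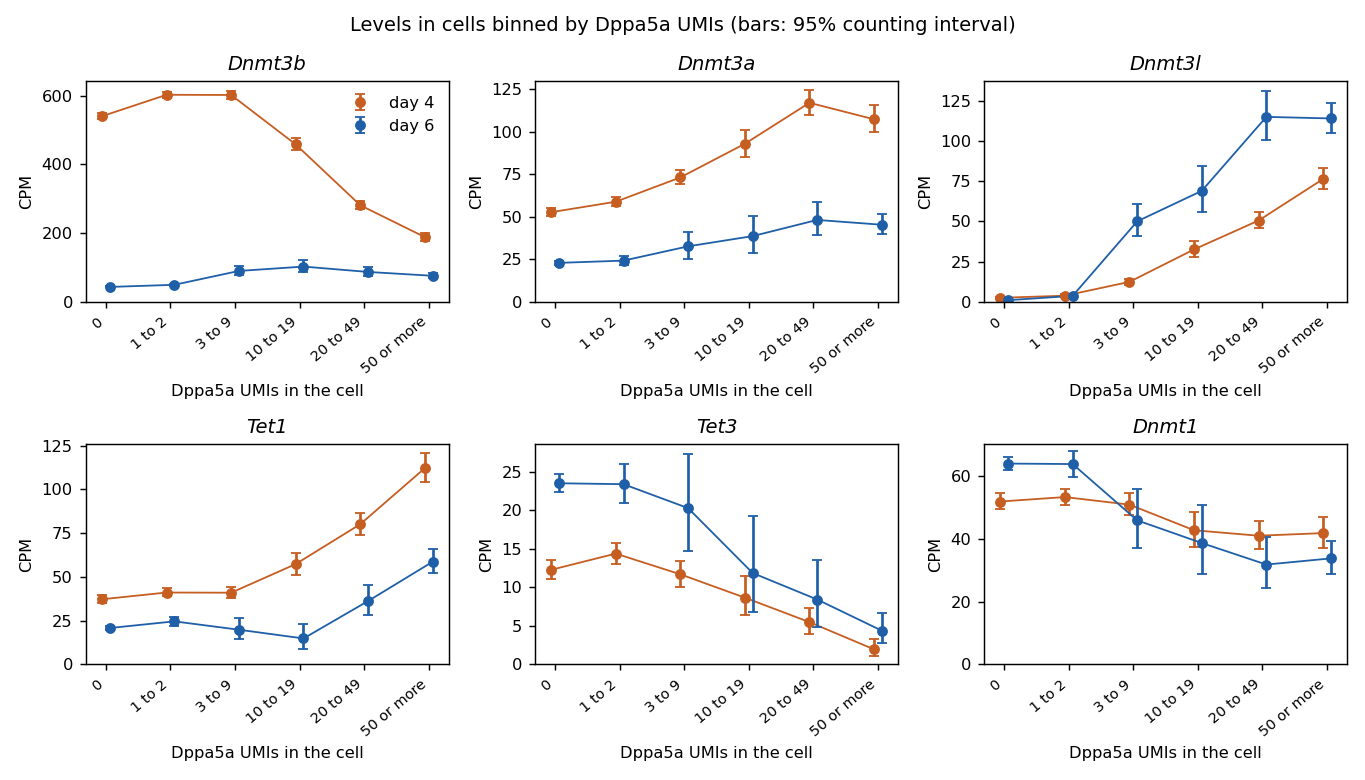
CPM of 6 genes in cells binned by their Dppa5a UMIs, at day 4 and day 6, with 95% counting intervals as bars and axes starting at 0. At day 4 Dnmt3b peaks at 1 to 9 UMIs (602.8 and 602.2 CPM) and drops to 188 CPM at 50 or more, where Dnmt3l and Tet1 reach 76.4 and 112 CPM. At day 6 Dnmt3b reaches 102 CPM at most, and Dnmt3l reaches 115 CPM.

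Along Fgf5, among all day 4 cells with fewer than 10 Dppa5a UMIs, Dnmt3b stood at 417 CPM with 0 Fgf5 UMIs, 558 with 1, 612 with 2, 643 with 3 to 4 and 704 with 5 or more. Median depth went from 9255 to 15341 UMIs over the same bins. Dnmt3a moved from 54.0 to 67.9 CPM, Tet1 from 35.1 to 46.6 CPM, and Dnmt3l from 10.2 to 2.67 CPM. Along Six3 at day 4, Dnmt3b was at 582.5 CPM with 0 UMIs, 570.5 with 1, 568.6 with 2, 561 with 3 to 4 and 492 with 5 or more, and Tet3 at 12.1 and 16.6 CPM in the lowest and highest bins. At day 6 along Six3, Dnmt3b lay between 39.6 and 49.2 CPM. Dnmt1 went from 59.0 CPM (56.4 to 61.7) with 0 UMIs to 72.5 (67.6 to 77.7) with 3 to 4, and these intervals lay apart. Dnmt3l stood at 5.16 CPM (4.42 to 5.99) with 0 UMIs and between 0.751 and 1.26 CPM in the bins above. From the lowest to the highest Six3 bin, median depth went from 10511 to 18523 UMIs at day 4 and from 11393.5 to 16963 at day 6. The part of depth in these levels was not tested.

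Most other genes of the pathway at the floor differed by less than 1.5-fold between the days, where 15.2% of all genes were higher and 7.54% lower. Of 7 maintenance partners at the floor, 1 was lower at day 6 and 0 higher. The lower gene was Hells, a chromatin remodeller needed for methylation, at 169 CPM at day 4 and 96.3 at day 6. Uhrf2, a relative of Uhrf1, had a ratio of 1.41, Pcna, the replication clamp, 1.26, and Usp7, a deubiquitinase that binds DNMT1, 0.745. Uhrf1, which brings DNMT1 to replicated DNA, stood at 58.0 and 70.2 CPM, a ratio of 1.21, close to that of Dnmt1. Of 11 genes of base excision and repair, 2 were higher, Neil3 (1.83-fold) and Gadd45b (1.61-fold), and 2 lower, Gadd45g (ratio 0.473) and Apobec3 (0.553). Tdg, the glycosylase that removes oxidised methylcytosine, had a ratio of 1.02 (0.981 to 1.05). Of 6 readers of methylated CpG, 0 were counted in either direction, with a median log2 ratio of 0.45 beside 0.14 for all genes. Zbtb38 stood 1.49-fold, Mbd1 1.48-fold and Zbtb33 1.34-fold as high at day 6 as at day 4. Zbtb38 and Mbd1, at 4.71 and 4.45 CPM at day 4, reached the floor only through day 6. Their directions were thus fixed by the floor, and the median of the readers includes them.

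Of 8 TET partners and genes of CXXC proteins, which hold a zinc finger for CpG-rich DNA, 2 were higher at day 6 and 0 lower. Cxxc4, known to bind TET2, stood at 2.76 and 10.8 CPM (3.90-fold, 3.41 to 4.48). It reached the floor only through day 6, so its direction was fixed by the floor. Idh2, the mitochondrial isocitrate dehydrogenase that makes 2-oxoglutarate, the substrate of TET enzymes, stood at 76.5 and 163 CPM (2.13-fold, 2.07 to 2.19). Cxxc1 had a ratio of 1.37 and Cxxc5 of 0.689. Of 5 genes of methyl donor supply, 0 were counted, and the ratios of Mat2a and Mat2b, the subunits of the enzyme that makes S-adenosylmethionine, were 1.25 and 1.20. Those of Ahcyl1 and of Ahcy, which clears the product of methyl transfer, were 1.06 and 0.825. Of 13 recruiters and histone modifiers, 2 were higher, Whsc1 (2.08-fold), a histone methyltransferase, and E2f6 (1.84-fold), a repressor of germline genes, and 0 lower. Smchd1, which acts on the inactive X chromosome, had a ratio of 1.33 and Max, the partner of MYC and MGA, of 1.31. In day 6 Six6 against day 4 Fgf5-only cells the counts per list were 0 higher and 1 lower, 2 and 2, 2 and 0, 3 and 1, 0 and 0, and 2 and 0 in the same order of lists, where 18.4% of all genes were higher and 9.59% lower. Of the genes counted there, Gadd45g, Apobec3, Mbd1, Zbtb38 and Cxxc4 reached the floor only through the group where they were high. The directions of these genes were thus fixed by the floor. With so few genes a list, the counts set no list apart from all genes.

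Germline genes known to be silenced by promoter methylation were near the detection limit, with 2 of 12 at the floor, Sycp3 and Mael. Mael reached the floor only through day 4, as did Sycp3 in day 6 Six6 against day 4 Fgf5-only cells, where its log2 ratio was -5.32, so the directions of these 2 were fixed by the floor. Sycp3, a protein of the meiotic chromosome axis, stood at 79.1 CPM at day 4 and 23.5 at day 6 (ratio 0.297, 0.282 to 0.311), and Mael, of the piRNA pathway, at 6.72 and 3.91 CPM (0.581, 0.509 to 0.663). By group, Sycp3 was at 152 CPM in Dppa5a-high, 66.2 in Fgf5-only, 31.3 in Fgf5 with Six3, 23.6 in Six3-only and 15.9 in Six6 cells of day 4. At day 6 it was at 145 CPM in Dppa5a-high, 158 in Fgf5-only, 6.19 in Six3-only and 1.66 in Six6 cells. Dppa3, which keeps UHRF1 from chromatin in early cells, and Dazl, a germ cell RNA-binding protein, both below the floor over all cells, stood at 11.2 and 5.08 CPM in Dppa5a-high cells of day 4 and at 50.01 and 22.7 CPM in those of day 6. Dppa3 and Dazl, like Uhrf1 and Tdg above, were named after their values were seen.

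**Figure D5:**
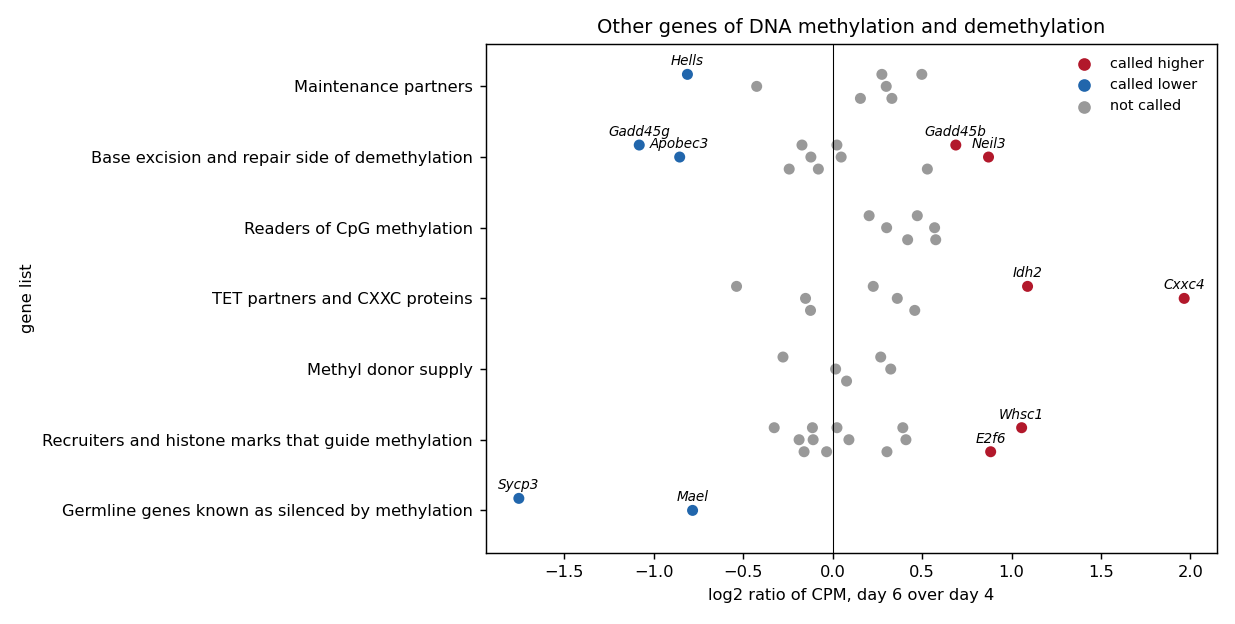
Log2 ratio of CPM, day 6 over day 4, for each gene at the floor in 7 lists of genes that work with, read or follow DNA methylation. Each point is a gene, coloured where it was counted as higher or lower. The counted genes are Neil3, Gadd45b, Cxxc4, Idh2, Whsc1 and E2f6 to the right and Hells, Gadd45g, Apobec3, Sycp3 and Mael to the left, and the 6 readers of CpG methylation all lie between 0 and 1 without being counted. Cxxc4 and Mael reached the floor only through the day on which they were higher, as did the readers Mbd1 and Zbtb38, which were not counted.

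Over the 11 day-by-group pools of at least 50 cells, each member at the floor was compared with the 4631 genes that averaged at least 20 CPM over them, by Pearson r of log2(CPM + 5). The pools come from 2 libraries and share depth and day, so these values are descriptions with no test. Closest to Dnmt3b were Pdzd4 (r = 0.996), Pim2 (0.988) and Snrpn (0.986), and closest to Dnmt3l were Sdc4 (0.989), Cd9 (0.984) and Zfp42 (0.980), the last a naive pluripotency marker. Closest to Dnmt1 were Trim37 (0.988) and Mcm3 (0.986), a helicase subunit of replication. Closest to Dnmt3a were 1190007I07Rik (0.980), Platr10 (0.955) and Mt1 (0.954), and to Tet1 Atox1 (0.959), Gsta4 (0.948) and Usp7 (0.939). Closest to Tet3 were Rcbtb2 (0.995), E2f6 (0.986) and Tead2 (0.986). Among the members, r was -0.91 between Tet1 and Tet3, -0.94 between Dnmt1 and Dnmt3l, 0.90 between Dnmt3a and Tet1, 0.78 between Dnmt3a and Dnmt3b, and -0.03 between Dnmt3b and Dnmt3l.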

How the data were processed

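Raw UMI counts per gene and cell were deposited by the authors as 1 filtered matrix per library, from 10x Genomics 3′ v2 libraries of Rax-GFP organoids at day 4 and day 6. Cell Ranger 2.0.1, Seurat 2.3.4 and the build mm10 are given in the notes on processing that the submitters left with GEO, while the study's methods name later versions of both tools and more cells than the deposited barcodes. Cells were kept with 500 to 5000 genes, 500 to 26000 UMIs, at most 10% mitochondrial, at least 20% ribosomal protein and at most 0.5% haemoglobin counts, after the study's methods. The filter left 8147 and 6641 cells. No doublet caller was run. Counts were summed over cells without normalization other than to CPM (Python 3.11.15, numpy 2.4.6, scipy 1.17.1, pandas 2.3.3, scanpy 1.11.5 for phases). With 1 library per day no p-value was computed. The calls by fold and interval were tested on simulated counts with counting error only. That simulation held no spread between cells, organoids or libraries, so it cannot tell how the calls fare under such spread. The members, cell groups and gene lists were chosen with earlier results of these data known. Named genes were the members, the grouping genes, up to 4 genes of each list with the largest log2 ratio in the day comparison, and the 3 genes most like each member, except 2 genes that are not reported here. Alternatives covered the cell filter, the totals, the CPM floor, the fold, the marker thresholds, thinning to 5000 UMIs, and leaving out cells of more than 1 kind, cells under 0.5% mitochondrial counts or cells with endoderm markers, the last 2 chosen after seeing the data.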

Additional observations from a re-analysis of the deposited data

Results flagged for a closer look

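Dnmt3l moved in opposite directions across days in 2 groups of cells. In Dppa5a-high cells the ratio of day 6 to day 4 was 1.98, from 1105 and 897 UMIs, and in Six3-only cells it was 0.411 (0.200 to 0.883), from 13 UMIs at day 4 and 23 at day 6. Leaving out cells of more than 1 kind took the Dppa5a-high ratio under 1.5-fold. The difference between the 2 groups was not tested, since each day is 1 library. The Six3-only levels, 3.33 and 1.37 CPM, lie below the floor of 5 CPM.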

How the results depend on the processing

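No paired analysis was possible because each day has 1 library. The counts of members higher or lower kept to within 1.5 times under the alternatives, except in 4 cases. Asking for a 2-fold difference left 3 members in place of 5 in Dppa5a-high cells across days, 1 in place of 3 in Fgf5-only cells across days and 1 in place of 3 in Six3-only cells across days. Lowering the floor to 1 CPM gave 5 members in place of 3 in Six3-only cells across days. No count or called ratio changed direction. Of the ratios of single members, 650 moved by less than their interval and 80 by more. The 25 day 6 cells with 2 or more Sox10 UMIs were below the minimum of 50 cells for a comparison, so the planned comparison with Six6 cells gave no value, and cells with at least 1 Sox10 UMI were compared in its place. Thinning also turned the log2 ratio of Dnmt3a in that comparison from 0.31 to -0.30, neither counted. The fewest UMIs stood behind Tet2, with 124 and 200 in all.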
